A study of Mus musculus with 8 samples.

Results

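The 8 genes described here encode death receptors of the tumour necrosis factor (TNF) receptor family and the proteins that gather at their cytoplasmic tails: the receptors Fas, Tnfrsf10b (the mouse receptor for the ligand TRAIL) and Tnfrsf1a (TNF receptor 1), the adaptors Fadd and Tradd, the protease Casp8, its relative and inhibitor Cflar (c-FLIP), and the kinase Ripk1. They were chosen by name, taking every probe whose gene symbol in the array files is one of the 8. This gave 20 probes of 41174 on the array, and 8 genes of 21394 with a symbol. All 8 genes had at least 1 probe above background, and 18 of the 20 probes passed that filter. The exceptions were 1 probe each of Fas and Tnfrsf10b.

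Messenger RNA levels were measured with 2-colour oligonucleotide arrays in LLC1 cells, a Lewis lung carcinoma line from a C57BL/6 mouse, grown in culture and harvested 4 h after X-rays. Cells were given 2 Gy at once on 3 arrays, 10 Gy at once on 2 arrays, and 2 Gy in each of 5 fractions, written 5x2 Gy, on 3 arrays. On every array untreated LLC1 cells were labelled with Cy3 and irradiated cells with Cy5, so a log2 ratio above 0 means more of the transcript in the irradiated cells. No array had the dyes the other way round, so a dye effect and a radiation effect cannot be told apart in a single ratio. Only a dye effect that was equal on all arrays would cancel in a difference between regimens. Whether it was equal between slides was not tested. The labels call the arrays biological replicates but do not say whether arrays shared 1 untreated RNA, nor how long the fractions were spaced. If they did share it, the p-values against untreated cells leave out part of the spread of the controls. The 3 arrays of 2 Gy and 10 Gy replicate 1 lay on slide 1, and 10 Gy replicate 2 and the 3 arrays of 5x2 Gy on slide 2. Dose and slide therefore cannot be fully told apart. A fixed slide term in a fit rests only on the 10 Gy arrays, 1 on each slide. Because RNA of whole cultures was measured, fewer cells expressing a gene and less RNA per cell cannot be told apart either.

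Death receptors are activated when a trimeric ligand brings their death domains together. Fas and Tnfrsf10b then recruit Fadd, which binds Casp8, and active Casp8 cleaves the executioner caspases or the protein Bid, which passes the signal to mitochondria. Cflar competes with Casp8 at Fadd. Tnfrsf1a instead binds Tradd and Ripk1 and mostly signals survival through NF-kB, unless Ripk1 is left free to form a complex with Fadd and Casp8. Fas and Tnfrsf10b are known targets of the DNA damage-activated transcription factor p53, and Cflar is known as a target of NF-kB.

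Untreated cells gave a signal above background on 44.8% to 49.1% of probes and irradiated cells on 34.7% to 47.5%, where the arrays on slide 2 were the lower ones. Transcripts of the keratins Krt8, Krt18 and Krt19 and of Vim were above background in untreated cells on all 8 arrays, while the epithelial genes Epcam and Cdh1 and the leukocyte genes Ptprc, Itgam and Adgre1 were above it on 0. Of the leukocyte list, Cd68 and Cd3e were above background in untreated cells on all 8 arrays, and Cd68 stood at 0.35 on the log2 scale after 2 Gy (limma adjusted p = 0.28) and rose by 1.22 ± 0.26 (SE) after 10 Gy (0.0085) and 0.84 ± 0.21 after 5x2 Gy (0.013). Of the fibroblast list, Col1a1, Col1a2, Pdgfra and Dcn were above background in untreated cells on 7, 4, 3 and 0 arrays; after 5x2 Gy Dcn was at least 2.21-fold higher (0.0039) and Col1a1 was lower (0.0036), with its irradiated signal not above background. Of the endothelial list, Pecam1 and Tek were above background on 0 arrays and Cdh5 was not called. Krt18 fell by 0.48, 0.89 and 0.63 after 2 Gy, 10 Gy and 5x2 Gy (0.033, 0.0035 and 0.0044). The other keratins did not follow it throughout. Krt19 fell by 0.87 after 10 Gy (0.011) and was not called after 2 Gy (0.1) or 5x2 Gy (0.42). Krt8 rose by 0.77 after 5x2 Gy (0.0021) and was not called after 2 Gy (0.9) or 10 Gy (0.16). Of the lung epithelium list, Sftpb (0.02) and Scgb1a1 (0.038) were lower after 5x2 Gy, but both lay close to background. In irradiated cells Sftpb was above it on 0 of the 8 arrays and Scgb1a1 on 2, and in untreated cells each on 5. Sftpc and Nkx2-1 were not tested. The part these markers had in the results was not tested. Cdkn1a, the p53 target p21, stood at 1.84 times its untreated level after 2 Gy (limma adjusted p = 0.088), 6.05 times after 10 Gy (0.0017) and 2.41 times after 5x2 Gy (0.012), with an SE of 0.32 to 0.39 on the log2 scale. Its log2 ratio after 2 Gy, 0.88, was -0.25 with the slide as a fixed block (adjusted p = 0.28) and 1.33 with median centring (0.031), and its call after 5x2 Gy was lost without any 1 of its replicates (0.055 to 0.07). Gapdh, often used as a control gene, stood at a log2 ratio of 0.38 ± 0.10 after 2 Gy (limma adjusted p = 0.025), 0.03 ± 0.12 after 10 Gy (0.85) and 0.18 ± 0.10 after 5x2 Gy (0.17). Its call after 2 Gy was lost without any 1 of its own replicates (0.055 to 0.2), and with median centring it stood at 0.996 (0.0021), 0.73 (0.014) and 0.40 (0.052).

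Promoter sequences were at hand for 6 of the 8 genes, in 7 entries of 300 bases (250 before the transcription start and 50 after it, RefSeq, GRCm38.p6). The 250 bases before the start are shown for Fas, the gene with the largest log2 ratios, and for Cflar and Casp8. These 2 are neighbours on chromosome 1 with 0 protein-coding genes between them. On the probes tested, their log2 ratios lay on opposite sides of 0 after 10 Gy and 5x2 Gy. In neither regimen were both called: Cflar had a limma adjusted p of 0.066 after 10 Gy, and Casp8 of 0.1 after 5x2 Gy. Capitals mark matches, searched on both strands, to GGGCGG, the core of a box bound by Sp1, to the promoter element CCAAT, or to TATAAA, the core of a TATA element. All 3 sequences are on the plus strand and run 5′ to 3′.
Fas, chr19:34290409-34290658: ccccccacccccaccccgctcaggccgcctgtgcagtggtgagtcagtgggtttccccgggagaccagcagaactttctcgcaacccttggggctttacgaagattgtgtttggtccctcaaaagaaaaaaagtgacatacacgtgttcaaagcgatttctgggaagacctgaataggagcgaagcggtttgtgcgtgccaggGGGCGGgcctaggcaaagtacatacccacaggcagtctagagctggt
Cflar, chr1:58711241-58711490: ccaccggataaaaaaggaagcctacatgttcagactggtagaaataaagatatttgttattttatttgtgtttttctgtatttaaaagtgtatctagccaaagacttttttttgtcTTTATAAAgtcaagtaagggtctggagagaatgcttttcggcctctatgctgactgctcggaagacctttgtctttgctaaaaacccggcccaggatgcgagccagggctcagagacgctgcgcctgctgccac
Casp8, chr1:58802252-58802501: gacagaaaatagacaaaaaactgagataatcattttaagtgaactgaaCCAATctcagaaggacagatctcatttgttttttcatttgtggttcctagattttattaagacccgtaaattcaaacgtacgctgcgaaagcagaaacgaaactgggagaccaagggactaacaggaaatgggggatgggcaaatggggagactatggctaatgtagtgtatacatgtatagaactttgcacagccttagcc
The Fas promoter held GGGCGG at bases -47 to -42 from the start, and once more on the other strand at bases 29 to 34, beyond the stretch shown. The capitals of Cflar cover TATAAA on both strands, overlapping between bases -134 and -127. Casp8 held CCAAT at bases -202 to -198. GGGCGG was also found in Fadd and Ripk1, so that 4 of the 7 entries held it, against 35.7% of all 32851 promoters of this length in the table. CCAAT was found in 37.4% of all promoters and TATAAA in 13.6%. The p53 half-site consensus (found in 8.36% of promoters) and the NF-kB consensus (4.51%) matched 0 of the 7 entries, which says only that these letters are not in these windows.

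Fas had the largest log2 ratio of the 8 genes after each regimen. After 2 Gy this order did not hold with the slide as a fixed block, where Cflar (0.91), Tradd (0.65), Casp8 (0.56) and Tnfrsf10b (0.55) lay above Fas (0.44), nor with it as a random block, where Cflar stood at 0.78 and Fas at 0.63. All 2 Gy arrays lay on slide 1, so the fixed-block values carry over the difference between the 10 Gy arrays. On the brightest Fas probe, which is printed 10 times on each array, the log2 ratio was 0.90, 1.20 and 1.11 on the 3 arrays of 2 Gy. It was 3.05 and 1.79 on the 10 Gy arrays. On the 5x2 Gy arrays it was 1.34, 1.13 and 1.20. Every array was above 0, and both 10 Gy arrays lay above all 6 others, while 2 Gy and 5x2 Gy overlapped. In the fit across all 13411 genes (limma, Benjamini-Hochberg adjusted), Fas rose 2.09-fold after 2 Gy (log2 1.07 ± 0.19 SE, adjusted p = 0.007), 5.36-fold after 10 Gy (2.42 ± 0.23, adjusted p = 0.00038) and 2.33-fold after 5x2 Gy (1.22 ± 0.19, adjusted p = 0.0013). Ordered by the size of the log2 ratio among the 13411 genes, Fas was number 63, 23 and 101. After 2 Gy the call was lost without replicate 2 (adjusted p = 0.069) or replicate 3 (0.064), and with the slide as a random block (adjusted p = 0.33). After 5x2 Gy the value was 1.85 with the slide as a fixed block. The SD between the 10 Fas spots of an array was between 0.11 and 0.33, and the lowest single spot on any array stood at 0.64.

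**Figure D1:**
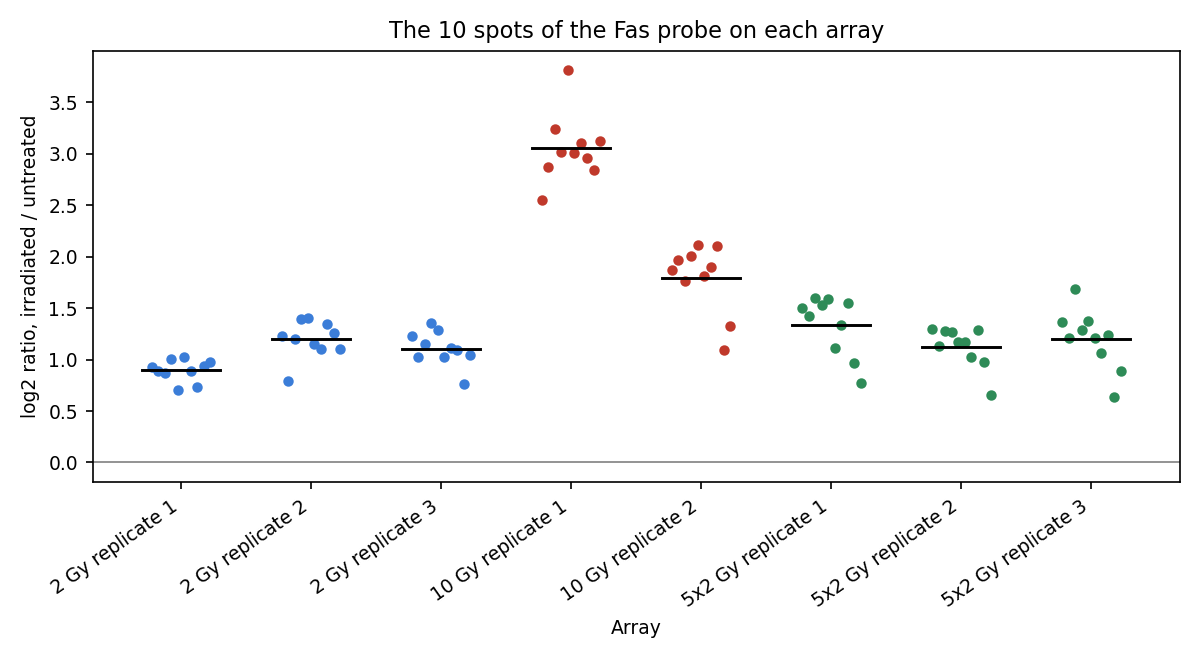
Log2 ratio of irradiated over untreated cells (vertical axis) for each of the 10 spots of the brightest Fas probe on each of the 8 arrays (horizontal axis), with the array mean as a black bar. All spots lie above 0, and the means of 3.05 and 1.79 on the 10 Gy arrays lie above the means of the 6 other arrays, which run from 0.90 to 1.34.

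The Fas probe was dim in untreated cells. Its raw signal there was between 387 and 534, only 1.12 to 1.28 times the detection threshold of its array, while in irradiated cells it was between 540 and 2808, or 1.94 to 7.38 times the threshold. A second Fas probe, listed under another RefSeq transcript, did not pass the filter. It was above background in untreated cells on 0 arrays and in irradiated cells on 1 array, 10 Gy replicate 1, where its log2 ratio was 2.43 against an untreated signal not above background. On the other 7 arrays its log2 ratio lay between -0.11 and 0.39.

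**Figure D2:**
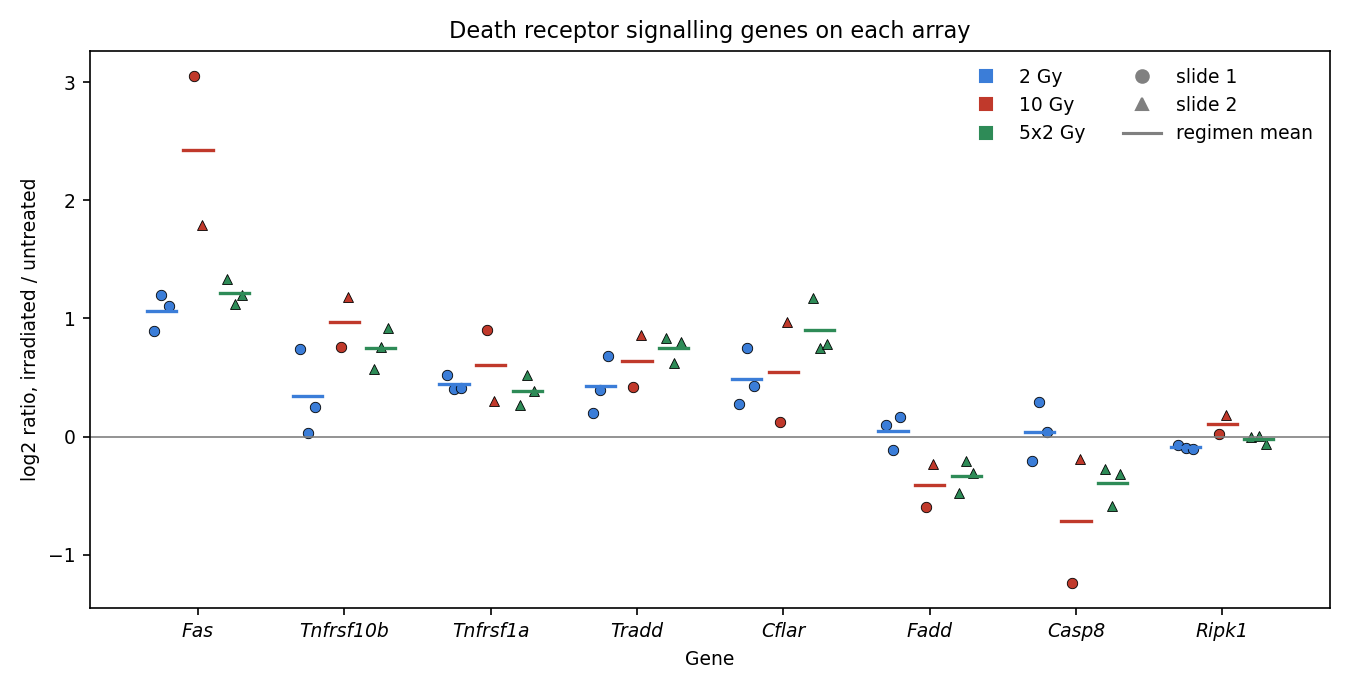
Log2 ratio of irradiated over untreated cells (vertical axis) for the probe tested for each of the 8 genes (horizontal axis). Each point is 1 array, coloured by regimen and shaped by slide, and bars are regimen means. The Fas points are all above 0.89, the Ripk1 points lie between -0.10 and 0.18, and for Casp8 and Cflar the pair of 10 Gy arrays differ by 1.05 and 0.85.

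Tnfrsf10b, the TRAIL receptor, rose after 10 Gy and after 5x2 Gy. Its log2 ratios were 0.74, 0.03 and 0.25 on the 2 Gy arrays, 0.76 and 1.18 on the 10 Gy arrays, and 0.57, 0.76 and 0.92 on the 5x2 Gy arrays. The 2 Gy arrays were the most scattered, with 1 of them as high as arrays of the other regimens. The mean was 0.34 ± 0.14 (SE) after 2 Gy (limma adjusted p = 0.13), 0.97 ± 0.18 after 10 Gy (adjusted p = 0.0039) and 0.75 ± 0.14 after 5x2 Gy (adjusted p = 0.0033). A second Tnfrsf10b probe listed under the same RefSeq transcript gave a different picture after 5x2 Gy: its log2 ratio was 0.05 after 2 Gy, 0.59 after 10 Gy (adjusted p = 0.0063 over all probes) and -0.14 after 5x2 Gy (adjusted p = 0.27). The rise after 10 Gy was thus seen on both probes, and that after 5x2 Gy on 1. Averaged over its kept probes, Tnfrsf10b stood at 0.31 after 5x2 Gy. The call after 10 Gy was lost when only the 10 Gy arrays entered the fit (adjusted p = 0.1).

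Tnfrsf1a, which binds TNF itself, rose by a similar small amount after every regimen. Its single probe, also printed 10 times, had log2 ratios of 0.52, 0.40 and 0.41 after 2 Gy, 0.90 and 0.30 after 10 Gy, and 0.26, 0.52 and 0.38 after 5x2 Gy. All 8 arrays were above 0 and the regimens overlapped. The mean was 0.45 ± 0.12 (SE) after 2 Gy, 0.60 ± 0.14 after 10 Gy and 0.39 ± 0.12 after 5x2 Gy, with limma adjusted p of 0.031, 0.014 and 0.026. These calls were fragile: that after 2 Gy was lost without any 1 of its replicates (adjusted p = 0.13 to 0.15) or any 1 array of 5x2 Gy (0.051 to 0.061), that after 10 Gy without its replicate 1 (0.30, adjusted p = 0.094), and that after 5x2 Gy without any 1 of its replicates (0.062 to 0.15). With the slide as a fixed block Tnfrsf1a stood at 0.15 after 2 Gy (adjusted p = 0.37) and 0.69 after 5x2 Gy.

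Among the adaptors, Tradd rose, and Fadd fell on 1 of its 2 probes. Tradd, the adaptor of TNF receptor 1, had log2 ratios of 0.20, 0.40 and 0.68 on the 2 Gy arrays, 0.42 and 0.86 on the 10 Gy arrays, and 0.84, 0.62 and 0.80 on the 5x2 Gy arrays. All were above 0, and the regimens overlapped. The mean was 0.43 ± 0.12 (SE, limma adjusted p = 0.04) after 2 Gy, 0.64 ± 0.15 (0.012) after 10 Gy and 0.75 ± 0.12 (0.0015) after 5x2 Gy. The 2 Gy call was lost without any 1 of its replicates (adjusted p = 0.059 to 0.27) or any 1 array of 5x2 Gy (0.063 to 0.072), and the 10 Gy call without its replicate 2 (0.42, adjusted p = 0.055).

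Fadd, which links Fas and Tnfrsf10b to Casp8, had log2 ratios of 0.10, -0.11 and 0.17 on the 2 Gy arrays, -0.59 and -0.23 on the 10 Gy arrays, and -0.48, -0.21 and -0.31 on the 5x2 Gy arrays. The 2 Gy arrays lay on both sides of 0, and the 5 arrays of the larger total dose all lay below them. On this probe Fadd fell to 0.752 of its untreated level after 10 Gy (log2 -0.41 ± 0.13 SE, limma adjusted p = 0.042) and to 0.795 after 5x2 Gy (-0.33 ± 0.11, adjusted p = 0.032), while after 2 Gy it stood at 0.05 ± 0.11 (0.77). The second Fadd probe, listed under the same RefSeq transcript, did not follow: it stood at -0.01 after 2 Gy, at 0.14 after 10 Gy (adjusted p = 0.39 over all probes) and rose by 0.26 after 5x2 Gy (adjusted p = 0.046). The mean of the Fadd probes was -0.14 after 10 Gy (adjusted p = 0.3) and -0.04 after 5x2 Gy (0.72). A direction for the Fadd transcript after 5x2 Gy is therefore not settled by these probes. The 10 Gy call on the brighter probe was lost when any 1 of the 2 Gy or 5x2 Gy arrays, or 10 Gy replicate 1 (-0.23, adjusted p = 0.24), was left out. The 5x2 Gy call was lost without any 1 of its own replicates (adjusted p = 0.071 to 0.19) or without 2 Gy replicate 3 (0.051).

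Casp8, the initiator protease, fell after 10 Gy, and 1 array carried most of it. The log2 ratios of its single probe were -0.21, 0.30 and 0.03 on the 2 Gy arrays, -1.23 and -0.19 on the 10 Gy arrays, and -0.27, -0.59 and -0.32 on the 5x2 Gy arrays. All 5 arrays of the larger total dose were below 0, but 10 Gy replicate 2 lay inside the range of the 2 Gy arrays. The mean was 0.04 ± 0.18 (SE) after 2 Gy (limma adjusted p = 0.9), -0.71 ± 0.22 after 10 Gy (0.037) and -0.39 ± 0.18 after 5x2 Gy (0.1). Without 10 Gy replicate 1 the value after 10 Gy was -0.19 (adjusted p = 0.42), and without replicate 2 it was -1.23. The call was also lost when any 1 of the 2 Gy or 5x2 Gy arrays was left out (adjusted p = 0.051 to 0.062).

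Cflar, the inhibitor of Casp8, rose after 5x2 Gy on its brightest probe. The log2 ratios were 0.27, 0.75 and 0.42 on the 2 Gy arrays, 0.13 and 0.97 on the 10 Gy arrays, and 1.17, 0.75 and 0.79 on the 5x2 Gy arrays. All 8 arrays were above 0, and 10 Gy replicate 1 was the lowest of them. The mean was 0.48 ± 0.16 (SE) after 2 Gy (limma adjusted p = 0.07), 0.55 ± 0.20 after 10 Gy (0.066) and 0.90 ± 0.16 after 5x2 Gy (0.0026), a 1.87-fold rise.

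The 7 kept Cflar probes did not behave alike. The files list them under different transcript accessions, but the probe sequences were not used here, so the disagreement cannot be placed on transcripts. The rise after 5x2 Gy was seen on 3 of the 7: on both probes listed under transcript variant 1, the second by 0.87 ± 0.13 (adjusted p = 0.0012 over all probes), and on A_52_P192071, listed under variant 2, by 0.54 ± 0.13 (0.0087). The other 4 were not above background in irradiated cells on any 5x2 Gy array, so their log2 values only bound the change. Of these, A_52_P214612 was at least 1.20-fold lower (adjusted p = 0.03). A_51_P135491, listed under variant 2 as well, A_52_P83888 and A_52_P624648 gave no fold, with adjusted p of 0.0038, 0.04 and 0.65 and means below 0. In the same 3 arrays fewer probes of the whole array were above background in the irradiated channel than on slide 1, and the part this played was not tested. On 10 Gy replicate 2, also on slide 2, A_52_P214612, A_51_P135491 and A_52_P83888 stood at -0.64, -0.44 and -0.52. Their irradiated signal was not above background there. On 10 Gy replicate 1, on slide 1, they stood at 0.14, -0.10 and 0.38. A_52_P624648 went the other way, with 0.24 on replicate 2 and -0.14 on replicate 1. Regimen and slide cannot be told apart in the values after 5x2 Gy. The mean of the kept Cflar probes after 5x2 Gy, 0.12 (adjusted p = 0.24), includes those 4 probes.

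**Figure D3:**
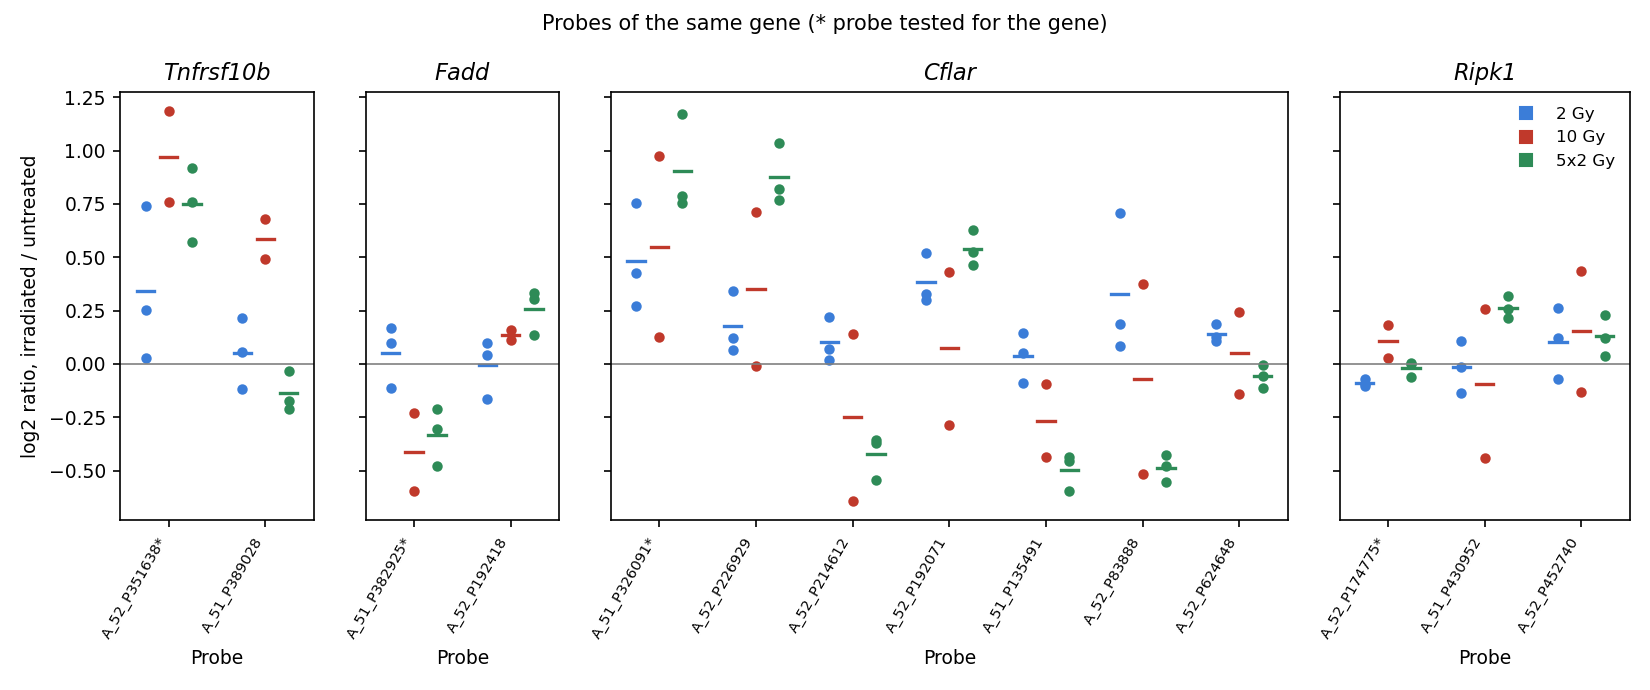
Log2 ratio of irradiated over untreated cells (vertical axis) for every kept probe of the 4 genes with several kept probes (horizontal axis, an asterisk marks the probe tested for the gene). Points are arrays, coloured by regimen, and bars are regimen means. Cflar probes range after 5x2 Gy from -0.50 to 0.90, where the 4 below 0 were not above background in irradiated cells, and the 2 Fadd probes lie on opposite sides of 0.

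Ripk1, the kinase downstream of Tnfrsf1a, gave no call. Its log2 ratios were -0.07, -0.10 and -0.10 on the 2 Gy arrays, 0.03 and 0.18 on the 10 Gy arrays, and 0.00, 0.01 and -0.06 on the 5x2 Gy arrays. These were the smallest values of the 8 genes after 10 Gy and 5x2 Gy. The 95% interval of its mean ran from -0.27 to 0.10 after 2 Gy, from -0.12 to 0.33 after 10 Gy and from -0.20 to 0.17 after 5x2 Gy, with limma adjusted p of 0.48, 0.47 and 0.88. The other 2 kept Ripk1 probes were not called in any regimen either, with means between -0.09 and 0.26; A_52_P452740 was not above background in irradiated cells after 5x2 Gy.

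Counted together, 3 of the 8 genes were called after 2 Gy, all higher (Fas, Tnfrsf1a and Tradd), where 16.9% of all genes tested were called at a limma adjusted p under 0.05, 8.99% higher and 7.93% lower. After 10 Gy 6 of the 8 were called, 4 higher (Fas, Tnfrsf10b, Tnfrsf1a and Tradd) and 2 lower (Fadd and Casp8), against 28.2% of all genes, 12.4% higher and 15.8% lower. After 5x2 Gy 6 of the 8 were called, 5 higher (Fas, Tnfrsf10b, Tnfrsf1a, Cflar and Tradd) and 1 lower (Fadd), against 41.0% of all genes, 17.6% higher and 23.4% lower. The median log2 ratio of the 8 genes was 0.38, 0.58 and 0.57 after 2 Gy, 10 Gy and 5x2 Gy, where the median of all genes was -0.00, -0.06 and -0.02. The counts moved with the model. With the slide as a random block they were 0, 2 and 1, where 0.157%, 10.9% and 6.09% of all genes were called, and with only the arrays of 10 Gy in the fit 1 gene, Fas, was called after 10 Gy, with 2.24% of all genes. After 2 Gy the count was 5 without either 10 Gy array (40.2% of all genes), 0 without 2 Gy replicate 2 or replicate 3 (3.61% and 3.04%), and 1 without 2 Gy replicate 1 (7.02%) or any 1 array of 5x2 Gy (10.8% to 12.5%). The genes were chosen with earlier results of these data known, so the shares are descriptions.

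**Figure D4:**
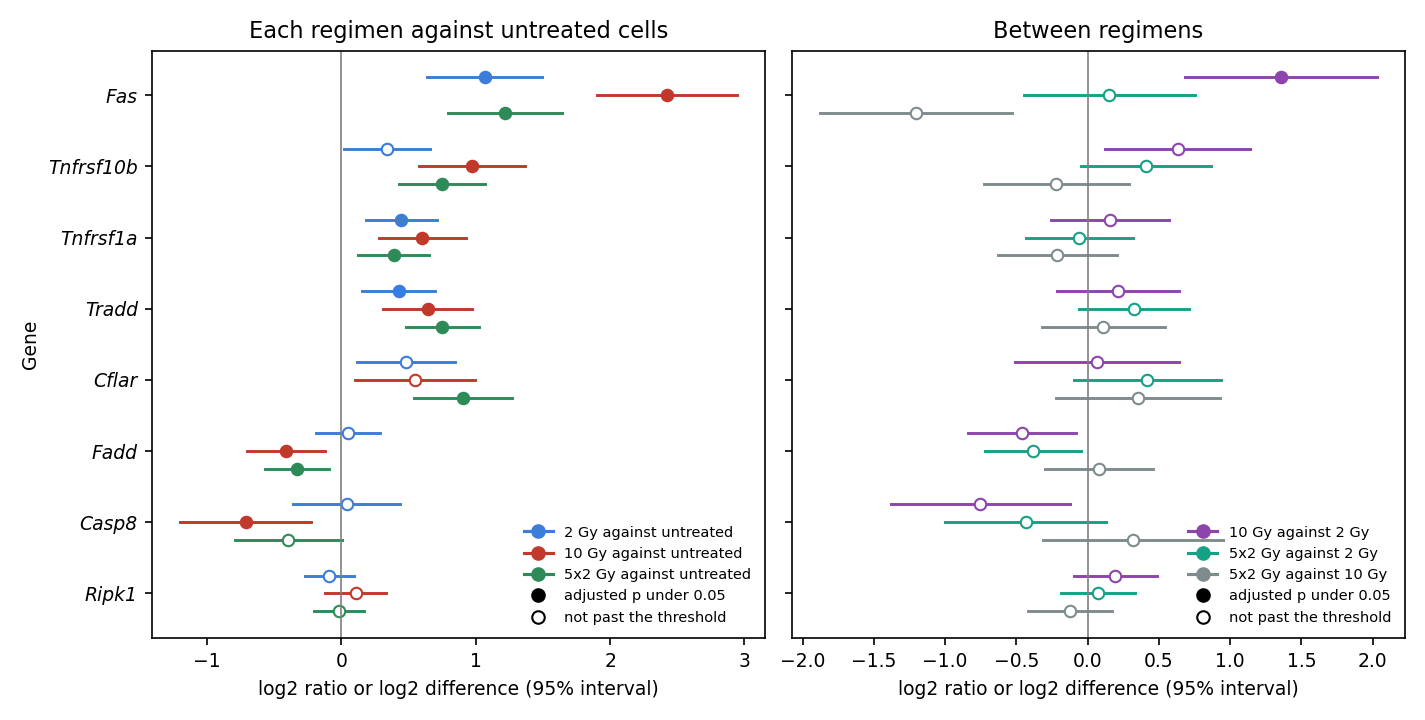
Mean log2 ratio of each regimen against untreated cells (left) and log2 difference between regimens (right) for the 8 genes, with 95% intervals from the limma fit; filled points have an adjusted p under 0.05. Of the differences between regimens only that of Fas between 10 Gy and 2 Gy, 1.36, is filled.

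Between single doses, 10 Gy against 2 Gy, Fas was the 1 gene of the 8 called, where 2.56% of all genes were, 1.04% higher and 1.52% lower. Fas was 2.56-fold higher after 10 Gy (log2 difference 1.36 ± 0.30 SE, 95% interval 0.68 to 2.03, limma adjusted p = 0.049). The call stood close to the threshold: it was lost without any 1 array of 2 Gy (adjusted p = 0.13 to 0.16) or of 5x2 Gy (0.094 to 0.1), and with scaling between arrays (0.89, adjusted p = 0.25). In the limma fit over all kept probes, the same Fas probe was not called either (adjusted p = 0.05). Without 10 Gy replicate 1 the difference was 0.73, and without replicate 2 it was 1.98, each resting on 1 array of 10 Gy. The first sets an array on slide 2 against 2 Gy arrays on slide 1, so dose and slide cannot be told apart in it. With the slide as a fixed block the difference is that of slide 1 alone, 10 Gy replicate 1 against the 2 Gy arrays. It was 1.98 for Fas, -1.28 for Casp8, -0.64 for Fadd and 0.46 for Tnfrsf1a, and rests on that 1 array of 10 Gy. With the slide as a random block Casp8 (-1.12, adjusted p = 0.0056) and Fadd (-0.59, 0.027) were called beside Fas, with 21.7% of all genes. On slide 1 alone the 10 Gy array exceeded the mean of the 2 Gy arrays by 1.98 for Fas and lay above each of them. In the fit without a slide term the other 7 genes did not pass the threshold. Tnfrsf10b differed by 0.63 (95% interval 0.12 to 1.14, adjusted p = 0.16), Fadd by -0.46 (-0.84 to -0.08, 0.17) and Casp8 by -0.75 (-1.38 to -0.12, 0.17). On slide 1 alone Casp8 was 1.28 lower and Fadd 0.64 lower on the 10 Gy array than the mean of the 2 Gy arrays.

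At the same total dose, 5x2 Gy against 10 Gy, 0 of the 8 genes were called, where 0% of all genes were in limma and 2241 of the 13411 had an unadjusted p under 0.05. Fas was 1.20 lower after 5x2 Gy (95% interval -1.88 to -0.53, adjusted p = 0.2), and its arrays did not overlap. Neither did those of Ripk1, which differed by -0.12 (adjusted p = 0.61). The share of all genes without overlap is not given here, so nothing about these genes is read from it. On slide 2 alone the 5x2 Gy mean of Fas was 0.58 below 10 Gy replicate 2, which lay above each 5x2 Gy array. Without 10 Gy replicate 2 the difference of Fas was -1.83. There the 1 array of 10 Gy lay on slide 1 and all 5x2 Gy arrays on slide 2, so dose and slide cannot be told apart. Without replicate 1 all arrays compared lay on slide 2, and the difference of Fas was -0.58. On slide 2 the corresponding differences of Tnfrsf1a, Fadd and Cflar were 0.08, -0.10 and -0.07, with 10 Gy replicate 2 inside the range of the 5x2 Gy arrays.

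The 10 Gy arrays, 1 on each slide, differed from each other by 1.26 for Fas, 1.05 for Casp8, 0.85 for Cflar and 0.60 for Tnfrsf1a. Casp8 and Cflar were higher, and Fas and Tnfrsf1a lower, on the array of slide 2.

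Against a single fraction, 5x2 Gy against 2 Gy, 0 of the 8 genes were called, where 1.30% of all genes were, 0.380% higher and 0.925% lower. In addition, 3436 of all genes had an unadjusted p under 0.05 in limma. Fas differed by 0.15 (95% interval -0.45 to 0.75, adjusted p = 0.75). Cflar differed by 0.42 (-0.10 to 0.94, 0.28), Tnfrsf10b by 0.41 (-0.05 to 0.86, 0.24), Fadd by -0.38 (-0.72 to -0.04, 0.16) and Casp8 by -0.43 (-0.998 to 0.13, 0.3). Each regimen of this comparison lay on 1 slide of its own, so a slide term rests only on the 10 Gy arrays, 1 on each slide. With the slide as a fixed block Fas (1.41, adjusted p = 0.0027) and Casp8 (-1.48, 0.0057) were called, with 17.7% of all genes, and Cflar stood at -0.43 (0.36) and Tnfrsf10b at -0.01 (0.98). Cflar was also below 0 with the slide as a random block (-0.17) and with the mean of probes (-0.11). Without 10 Gy replicate 1 or replicate 2, Fadd and Casp8 were called (adjusted p = 0.033 and 0.041), so that 2 of the 8 genes were, with 29.9% of all genes.

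Other genes of the pathway were taken from 6 lists by role, 68 genes of which 57 were tested. The call counts were close to those of all genes: 9 of 57 after 2 Gy (7 higher and 2 lower, 15.8%), 20 after 10 Gy (11 and 9, 35.1%) and 25 after 5x2 Gy (14 and 11, 43.9%). Their medians were -0.01, 0.04 and 0.00. Leaving out 1 array moved the count after 2 Gy to 1 (without 2 Gy replicate 2 or replicate 3), 4 (without 2 Gy replicate 1) or 25 (without either 10 Gy array), and that after 5x2 Gy to 16 (without its replicate 1, where 24.0% of all genes were called). With the slide as a random block the counts were 0, 7 and 1. The shares of all genes called in the other of these fits are those given for the 8 genes.

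Of the 8 ligands, Tnfsf10 (TRAIL), Lta, Tnfsf12 and Tnfsf15 were not above background. Of the 4 ligands tested, none was called after 2 Gy or 10 Gy, and 2 were called after 5x2 Gy, both lower: Fasl, the ligand of Fas (limma adjusted p = 0.03), and Tnfsf14 (0.0046). Neither has a fold, since the irradiated signal was not above background on any 5x2 Gy array, nor was the untreated signal of Fasl. Of the 8 other receptors tested, the decoy receptor Tnfrsf23 was at least 1.47-fold higher after 10 Gy (0.009), with its untreated signal not above background. The death receptor Tnfrsf25 was lower after 10 Gy (0.034) and after 5x2 Gy (0.0017), with its irradiated signal not above background and no fold. TNF receptor 2, Tnfrsf1b, was at least 1.25-fold lower after 5x2 Gy (0.019). Tnfrsf12a fell by 0.58 ± 0.17 (SE) after 2 Gy (0.043), and its direction turned with median centring, to 0.03.

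In the TNF receptor complex and its ubiquitin machinery, 19 of 20 genes were tested. After 2 Gy 3 were higher and 1 lower, after 10 Gy 4 and 5, and after 5x2 Gy 6 and 4. Tnfaip3, which encodes the ubiquitin-editing inhibitor A20, fell after all 3 regimens, by 0.46 ± 0.09, 0.70 ± 0.11 and 0.62 ± 0.09 (SE, limma adjusted p = 0.011, 0.0022 and 0.0011). Sharpin, a subunit of the linear ubiquitin ligase, rose by 0.53 ± 0.12, 0.49 ± 0.14 and 0.72 ± 0.12 (0.016, 0.029 and 0.0015), and its catalytic subunit Rnf31 rose by 0.66 ± 0.16 after 5x2 Gy (0.0095). Spata2, which links the deubiquitinase Cyld to that ligase, rose by 0.51 ± 0.10, 0.65 ± 0.12 and 0.67 ± 0.10 (0.011, 0.0048 and 0.0012). Ikbkg (NEMO), the regulatory subunit of the IkB kinase, rose by 0.86 ± 0.12 after 10 Gy (0.0012) and 0.69 ± 0.10 after 5x2 Gy (0.0009). It was also the 1 gene of the 57 called between 10 Gy and 2 Gy (0.73 ± 0.16, adjusted p = 0.045). After 10 Gy the adaptor Traf5 fell by 0.76 ± 0.17 (0.0091) and the caspase inhibitor Xiap by 0.69 ± 0.16 (0.012). In irradiated cells Xiap was above background on only 1 of the 2 arrays of 10 Gy, so the size of its fall is uncertain. After 2 Gy Tnip1, a partner of A20, rose by 0.66 ± 0.11 (0.0062).

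Of the 13 modulators of receptor complexes that were tested, Dedd2, a nuclear protein with a death effector domain, rose after all 3 regimens, by 0.89 ± 0.11, 0.80 ± 0.13 and 0.65 ± 0.11 (SE, limma adjusted p = 0.0018, 0.0025 and 0.0019). Cradd, an adaptor of Ripk1 and caspase 2, rose by 0.51 ± 0.12 after 2 Gy (0.018), and after 5x2 Gy by 0.43 ± 0.12 (0.017). The Fas-associated factor Faf1 fell by 0.68 ± 0.14 (0.0067) and Fem1b by 0.59 ± 0.14 (0.013) after 10 Gy. After 5x2 Gy Madd, which binds the death domain of Tnfrsf1a, rose by 0.65 ± 0.20 (0.029), while Faim2, an inhibitor of Fas signalling, was lower (0.013), with its irradiated signal not above background and no fold. In the necroptosis list 2 of 4 genes were tested; Ticam1, an adaptor of Toll-like receptors, rose by 0.49 ± 0.11, 0.46 ± 0.14 and 0.71 ± 0.11 (0.017, 0.033 and 0.0013), Mlkl was not called, and Ripk3 and Zbp1 were not above background.

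Downstream, all 11 genes of the caspase and mitochondrial list were tested. Bax, which permeabilises the outer mitochondrial membrane, rose by 0.82 ± 0.20 after 2 Gy (SE, limma adjusted p = 0.022) and 1.44 ± 0.24 after 10 Gy (0.0027). After 2 Gy it stood at 1.31 with median centring and at 0.14 with the slide as a fixed block (adjusted p = 0.35). After 10 Gy Apaf1, which builds the apoptosome, rose by 0.91 ± 0.21 (0.012), while Htra2 fell by 0.62 ± 0.17 (0.025), a value that was -0.095 with median centring (adjusted p = 0.66). After 5x2 Gy Bid, the Casp8 substrate, rose by 0.72 ± 0.19 (0.014) and Bak1, a relative of Bax, by 0.75 ± 0.12 (0.0012), whereas cytochrome c, Cycs, fell by 0.79 ± 0.10 (0.00051) and Diablo by 0.51 ± 0.10 (0.004).

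**Figure D5:**
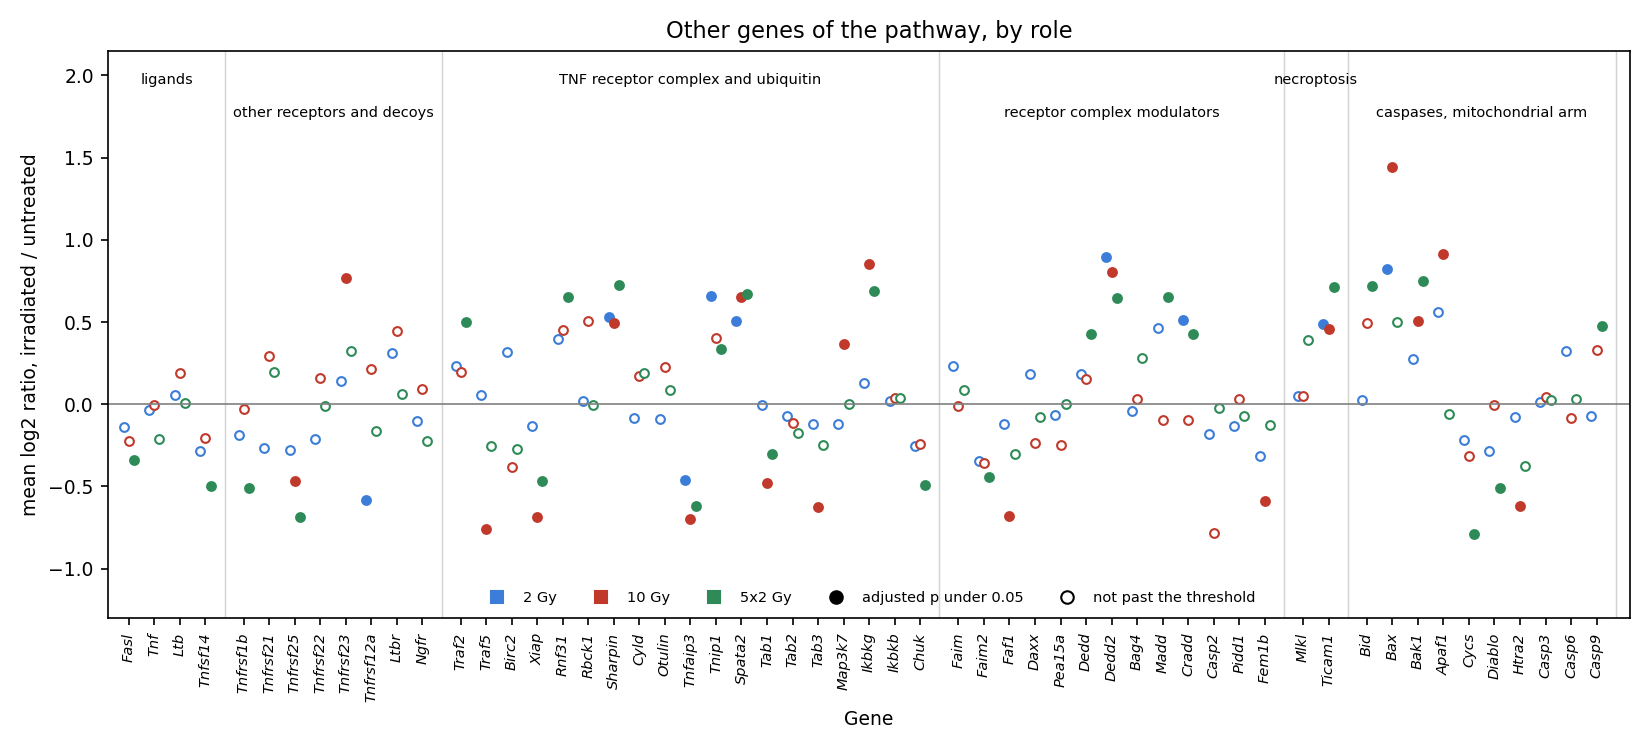
Mean log2 ratio of irradiated over untreated cells (vertical axis) for 56 of the 57 tested pathway genes (horizontal axis), grouped by list, with colours for the regimens; filled points have a limma adjusted p under 0.05. Filled points lie on both sides of 0, from -0.79 (Cycs after 5x2 Gy) to 1.44 (Bax after 10 Gy).

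Across the 8 arrays the 8 genes did not form 1 pattern. Pearson's r over the arrays was 0.74 between Cflar and Tradd, 0.70 between Fas and Tnfrsf1a, -0.76 between Fas and Casp8 and -0.82 between Tnfrsf1a and Cflar. These are descriptions: the 8 points share regimens and slides, and the array of 10 Gy replicate 1 is the extreme of several genes. Among all 13410 other genes, the 3 whose log2 ratios were most like Fas included Ddit4 (r = 0.994) and Fgf18 (0.993). Without the arrays of 10 Gy, the farthest from the median for Fas, these correlations were 0.949 and 0.862. For Tnfrsf10b they were Dusp8 (0.985), Eif4e2 (0.975) and Rbmx (0.971), and for Tnfrsf1a Abcc3 (0.988), Fat1 (0.985) and Hsd3b3 (0.984). For Fadd they were Zfp975 (0.988), Agk (0.972) and Tfb1m (0.972), and for Casp8 4833420G17Rik (0.994), Nipbl (0.988) and Pnpla6 (0.988). For Cflar they were Impa1 (0.973), Surf1 (0.973) and Tom1l1 (0.972), and for Ripk1 Snhg11 (0.982), Ptpn22 (0.973) and Gm14325 (0.969). Tradd was most like Spata2 (0.958), the gene of the ubiquitin list described above, then Cep76 (0.956) and Galnt13 (0.955). Without 2 Gy replicate 1 and replicate 2, the farthest arrays for Tradd, these were 0.932, 0.982 and 0.922. All genes named here were picked as the highest of 13410 over 8 arrays, so a high r is built into the choice. A shared function was not tested.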

How the data were processed

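The authors deposited 1 scanner file per array (ImaGene 9.0, per the file headers), with a mean signal intensity for each of 45220 spots in both channels and no background column, and a table of log2 ratios. That deposited log2 table matched loess-normalized ratios without background correction (r of 0.998 to 1.000 per array; medians -0.005 to 0.009) and served as an alternative. Direction follows the dyes in the labels; genome build and probe design are not given in the sources used here.

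Intensities were corrected with normexp (offset 50), normalized by loess within each array with limma 3.58.1 in R 4.3.3, and averaged per probe. The detection threshold was the median of the 153 negative controls plus 2.6 times their robust SD, and the 21685 of 41174 probes that passed it in either channel on 2 or more arrays were kept. Symbols were updated through RefSeq accessions: 27190 probes matched, of which 1500 changed symbol. The brightest kept probe stood for each gene. Regimen means over all 8 arrays were tested with eBayes, with Benjamini-Hochberg adjustment over 13411 genes and calls at an adjusted p under 0.05. The fit was tested on simulated data. The number of arrays limits the precision, and p-values cover only the spread between these arrays. The labels number 10 Gy replicates up to 3; replicate 3 is not analysed here.

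Pathway genes named are at most the 4 called members of a list with the largest change per regimen, and for each of the 8 genes the 3 most like it by Pearson's r; 2 genes that this rule names are not reported here. The 8 genes and the lists were chosen with earlier results of these data known. Same-numbered replicates did not deviate together (correlations of deviations from -0.24 to 0.11), so they were not paired. Alternatives were background correction, scaling, the filter, the probe rule, slide and replicate blocks, array weights, the arrays in the fit, each array left out and, added after seeing the data, leaving out spots marked by the scanner software.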

Additional observations from a re-analysis of the deposited data

Results flagged for a closer look

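The response of Fas to X-rays differed between 2 regimens in the test of the difference itself, at the edge of the threshold. The log2 difference between 10 Gy and 2 Gy was 1.36 (limma adjusted p = 0.049), with log2 ratios of 3.05 and 1.79 on the 10 Gy arrays and 0.90 to 1.20 on the 2 Gy arrays. In the limma fit over all kept probes the same probe was not called (adjusted p = 0.05). There 0 of the 18 kept probes of the 8 genes were called, with 2.23% of all probes. Arrays of these regimens did not overlap for Tnfrsf10b, Fadd and Ripk1 either, which were not called. The share of all genes whose arrays did not overlap is not given here, so the lack of overlap is only a description. For Fas the log2 difference is followed over the alternatives. Over the 20 alternatives it stayed positive, between 0.73 and 1.98, and passed the threshold in 8. These alternatives are not independent. The fixed slide block and the fit without 10 Gy replicate 2 give the same 1.98, from 10 Gy replicate 1 alone. The fit without replicate 1, at 0.73, sets an array on slide 2 against arrays on slide 1.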

How the results depend on the processing

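Counts of the 8 genes called changed with the model. Beside each count stands the share of all genes called in the same fit. For 2 Gy (3 called) they were 5 with median centring (26.9%), the slide as a block (33.3%) or array weights (54.3%), and 0 with the slide as a random block (0.157%; correlation within a slide 0.697). For 10 Gy (6) they were 2 with the random slide block (10.9%), and 1 with array weights (1.66%) or only the arrays of the regimens compared (2.24%). For 5x2 Gy (6) the random slide block left 1 (6.09%). For 10 Gy against 2 Gy (1) they were 0 with scaling between arrays (0.201%), no filter on dim probes (1.58%), the mean of probes (2.22%), array weights (0.0149%) or only the arrays compared (0%), 4 with the slide as a block (32.1%) and 3 with it as a random block (21.7%). For 5x2 Gy against 2 Gy (0) they were 2 with the slide as a block (17.7%), 4 with array weights (44.9%) and 2 with only the arrays compared (29.9%). With the replicate number as a replicate block, counts were 1 for 2 Gy (10.6%), 3 for 10 Gy (17.0%) and 0 for 10 Gy against 2 Gy (0%), and the other counts stayed within 1.5 times; the arrays share only a number. Leaving out 1 array gave 0 to 5 for 2 Gy (3.04% to 40.2%), 4 to 7 for 5x2 Gy (22.4% to 59.5%) and 0 to 2 for 5x2 Gy against 2 Gy (0% to 29.9%). Leaving out an array of 2 Gy or 5x2 Gy gave 4 for 10 Gy (21.7% to 24.2%). It gave 0 for 10 Gy against 2 Gy (0% to 0.0373%) and 0 for 5x2 Gy against 10 Gy (0%). With 1 of the 10 Gy arrays left out, 10 Gy rested on 1 array of 1 slide, so those counts are left out.

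Against untreated cells, Fas was called in 17 of 20 alternatives after 2 Gy, and in 20 of 20 after 10 Gy and after 5x2 Gy; no value of the 8 genes that was called against untreated cells changed sign. Values that turned and were called on either side were those of pathway genes: with median centring after 2 Gy, Tnfrsf12a 0.030 and Htra2 0.41; with the slide as a block after 2 Gy, Tab3 0.38, Bag4 0.54 and Casp2 0.70; and without 10 Gy replicate 2 after 10 Gy, Tnfrsf1b 0.40, Bag4 -0.55 and Mlkl -0.52. With any 1 array left out, these 3 values after 10 Gy ranged from -0.46 to 0.40, from -0.55 to 0.62 and from -0.52 to 0.62. Median centring moved the median of all genes after 2 Gy to 0.13 and the share of higher calls from 53.1% to 82.3%, from 44.0% to 58.6% after 10 Gy, from 40.5% to 20.9% for 10 Gy against 2 Gy and from 29.1% to 7.08% for 5x2 Gy against 2 Gy; scaling between arrays gave 14.8% for 10 Gy against 2 Gy. With spots marked by the scanner software left out, another Cflar probe stood for the gene, at 0.18 after 2 Gy and 0.87 after 5x2 Gy. The cause of these changes was not tested. Signal limits Fas most, whose untreated channel lay 1.12 to 1.28 times above the detection threshold.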
